A study of Drosophila melanogaster with 2 samples.

Results

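The genes described here are 10 genes of the Drosophila melanogaster germline and of its Piwi-interacting RNA (piRNA) pathway, namely piwi, aub, AGO3, vas, nos, cuff, rhi, del, bgcn and bam. They were chosen by name from the 13968 protein-coding genes annotated on the chromosome arms. Chromatin immunoprecipitation with sequencing mapped the DNA bound by Atf6 fused to enhanced green fluorescent protein (eGFP) in whole embryos aged 0 to 24 h. Both samples came from 1 fly strain, labelled Atf6-GFP, in which an insertion targets Atf6. The antibody was raised against GFP and so recognised the fusion protein, and whether the flies keep untagged Atf6 is not stated in the labels used here. The 2 samples are labelled as biological replicates 1 and 2, and with 1 group no comparison between conditions was possible. Chromatin was sonicated, with a labelled size range of 200 to 800 whose unit is not given. Whole embryos were used and germ cells are few among their cells, so a peak could not be assigned to germ cells or to somatic cells, and binding in fewer cells and weaker binding per cell cannot be told apart.

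Piwi-interacting RNAs are short guide RNAs that silence transposons in the germline. In the fly ovary they are cut from long precursors transcribed from clusters of transposon remnants, and they guide 3 Argonaute proteins of the Piwi class, one in the nucleus and the others in nuage, a granular structure around germ cell nuclei. Several of the same proteins are loaded into the germ plasm of the egg, which the primordial germ cells inherit. Atf6 is a basic leucine zipper factor that is anchored in the endoplasmic reticulum membrane, and in vertebrates it is released by proteolysis during protein-folding stress and activates chaperone genes.

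The stretches that the results below turn on are given here, 5′ to 3′ on the strand of the gene named, with dm6 coordinates and the bases of the RefSeq copy of that assembly. The 4 upstream stretches end 1 base before the annotated start and are shown because the nearest Atf6-eGFP regions of these genes lie in or just beyond them. The other 2 stretches are the 101 bases centred on the summits of main-list peaks in an intron of piwi and upstream of del. Capitals mark matches to the 11 short words that were searched.
nos upstream, chr3R:19157018-19157237 (+ strand): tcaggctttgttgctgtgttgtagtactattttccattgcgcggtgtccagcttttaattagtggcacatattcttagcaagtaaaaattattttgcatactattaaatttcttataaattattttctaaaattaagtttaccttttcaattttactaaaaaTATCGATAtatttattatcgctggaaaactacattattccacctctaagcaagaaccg
piwi upstream, chr2L:10987421-10987670 (- strand): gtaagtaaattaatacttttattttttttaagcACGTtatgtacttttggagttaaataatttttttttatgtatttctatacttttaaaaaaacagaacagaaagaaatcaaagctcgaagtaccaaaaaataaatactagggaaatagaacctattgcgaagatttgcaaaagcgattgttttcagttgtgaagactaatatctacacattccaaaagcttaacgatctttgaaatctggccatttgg
vas upstream, chr2L:15061406-15061655 (+ strand): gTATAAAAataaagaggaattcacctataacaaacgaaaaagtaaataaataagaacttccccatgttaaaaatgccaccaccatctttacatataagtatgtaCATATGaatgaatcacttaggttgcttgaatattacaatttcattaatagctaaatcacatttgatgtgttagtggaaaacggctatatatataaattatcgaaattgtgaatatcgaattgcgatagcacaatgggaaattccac
bam upstream, chr3R:25245110-25245359 (- strand): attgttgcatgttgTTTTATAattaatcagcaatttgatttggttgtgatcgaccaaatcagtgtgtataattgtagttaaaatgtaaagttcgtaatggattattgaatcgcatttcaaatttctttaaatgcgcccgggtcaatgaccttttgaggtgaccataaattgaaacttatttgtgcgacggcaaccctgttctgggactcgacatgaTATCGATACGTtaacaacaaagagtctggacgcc
piwi intron peak, chr2L:10986359-10986459 (- strand): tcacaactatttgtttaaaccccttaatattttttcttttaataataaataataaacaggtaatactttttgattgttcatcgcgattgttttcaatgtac
del upstream peak, chr2L:21149261-21149361 (- strand): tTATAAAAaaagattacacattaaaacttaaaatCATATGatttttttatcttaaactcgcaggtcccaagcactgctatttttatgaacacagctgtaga
In the bam stretch TATCGATA and ACGT overlap by 1 base, so their capitals form 1 run. No stretch holds annotated untranslated sequence.

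The 11 words were searched on both strands in these stretches, in the 300 bases around each start (250 upstream and 50 downstream) and in the 101 bases centred on each peak summit. They were TGACGTGG, which vertebrate ATF6 binds, the cyclic AMP response element TGACGTCA, their core ACGT, the E-boxes CACGTG and CATATG, the DNA replication-related element TATCGATA, the core promoter words GGTCACAC, GGTATTT and TATAAAA, and TAACNGT and CAGGTAG, the last being bound by the early embryonic factor Zelda. TGACGTGG, TGACGTCA and CACGTG each contain ACGT. None of the 10 genes had TGACGTGG, TGACGTCA, CACGTG or CAGGTAG in its 300 bases. These words occurred in 0.372%, 0.437%, 4.20% and 1.64% of all coding promoters. ACGT occurred in 5 of the 10 genes, piwi, aub, AGO3, rhi and bam, and in 48.3% of all coding promoters. TATCGATA occurred in 2 of the 10, starting at -58 bp in nos and at -34 bp in bam, and in 9.36% of all coding promoters. GGTCACAC was found in piwi alone of the 10 and in 7.69% of all coding promoters, and GGTATTT in rhi alone and in 9.87%. TATAAAA lay in the 300 bases of vas, bgcn and bam and in 24.2% of all coding promoters, and in bgcn it began at -25 bp. TAACNGT lay in AGO3, nos and rhi (13.3% of all coding promoters) and CATATG in vas and cuff (7.81%). At the summits, the peaks of nos, cuff and bgcn held none of the 11 words, and the summit window of the piwi promoter region held ACGT, which 17.0% of all main-list summits also hold. A match to a word is a description of the sequence and does not mark a binding site.

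Atf6-eGFP had a promoter peak at 3 of the 10 genes, nos, cuff and bgcn. A promoter peak is a peak whose summit, its point of highest enrichment, lies within 500 bp of any annotated transcription start site (TSS) of the gene. Among all 13968 coding genes, 3019 had one, which is 21.6%, so the share of the 10 genes is near the background and is not a result about them. The counts refer to the main list, the 5846 peaks that the authors called from both replicates at an irreproducible discovery rate (IDR, an estimate of how often regions at that rank or above fail to recur between rankings) of 0.01 or lower. Signal is the authors' score for a peak. Its scale is not stated, it is used here only within 1 list, and in the main list it ran between 2.11 and 4478 with a median of 101.8. A second, conservative list of both replicates held 4884 peaks, and the replicates' own lists held 4249 and 3424. Each list was cut from a much longer ranking, of 105892 regions in the case of the main list, and these rankings give a signal also for genes without a peak. The number of reads behind the lists is unknown.

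Between 2 and 4 of the 10 genes had a promoter peak in each of the other lists. In the conservative list 4 of the 10 genes had a promoter peak, the same 3 and piwi, against 2699 of all coding genes (19.3%). In the list of replicate 1 there were 3, again nos, cuff and bgcn, against 2337 coding genes (16.7%). In the list of replicate 2 there were 2, cuff and bgcn, against 1981 coding genes (14.2%). A ranked region of any strength lay at the promoter of 9 of the 10 genes, all but AGO3, and at that of 10545 coding genes (75.5%). With genes that have no region set to 0, the median of the strongest promoter signal was 45.8 over the 10 genes and 33.4 over all coding genes.

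**Figure D1:**
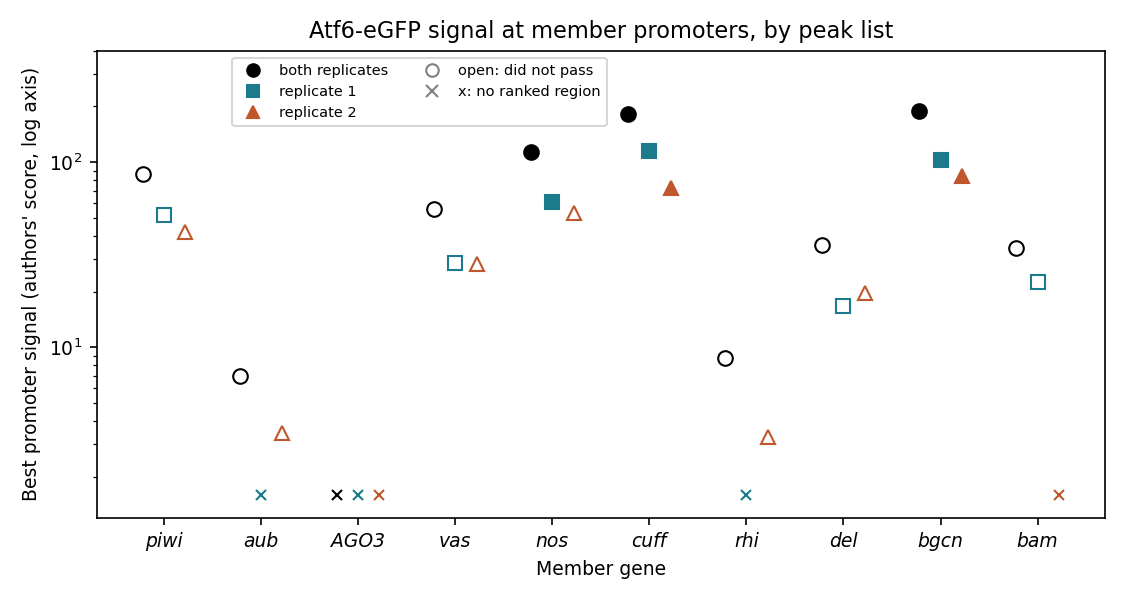
Strongest promoter signal of each of the 10 genes (log axis, authors' score) in the ranking of both replicates (circles), of replicate 1 (squares) and of replicate 2 (triangles), with filled symbols for peaks that passed the IDR threshold of that list and crosses where no region was ranked. The cuff and bgcn symbols are filled in all 3 rankings, nos in that of both replicates and of replicate 1, and AGO3 has no region in any; each ranking has its own signal scale.

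**Figure D2:**
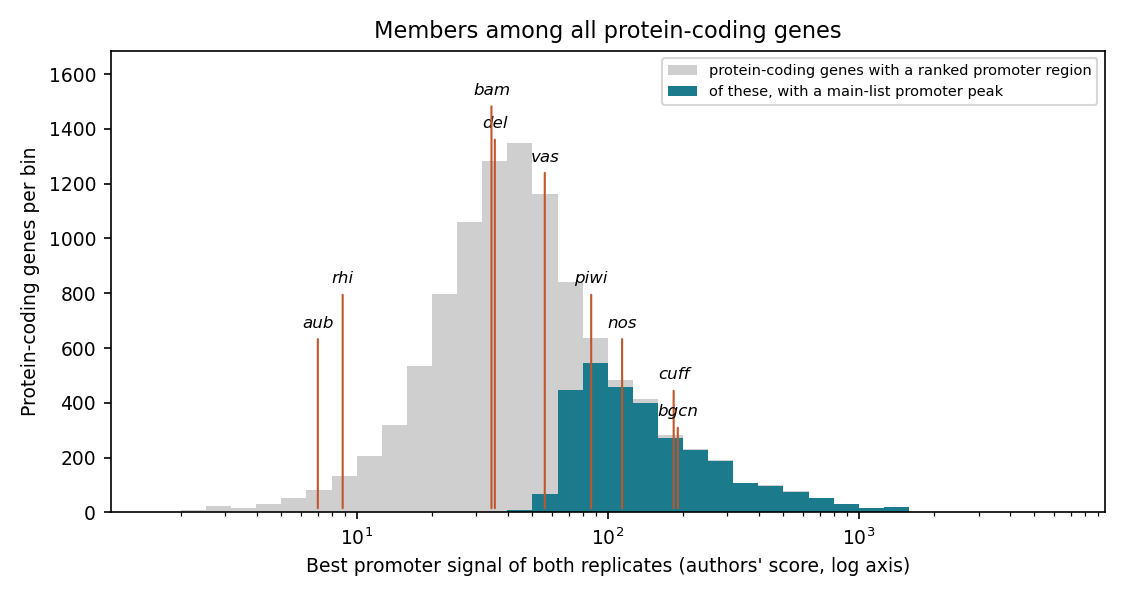
Number of protein-coding genes by strongest promoter signal in the ranking of both replicates (log axis, authors' score), with the 9 described genes that have a ranked region as lines and the genes with a main-list promoter peak in the darker colour. AGO3 and 3423 coding genes in all have no ranked promoter region and are not drawn; bgcn, cuff and nos lie among the genes with a peak and aub and rhi at the low end.

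The Argonaute genes had no promoter peak in the main list. In the ranking of both replicates piwi had a promoter signal above that of most coding genes, aub a low one and AGO3 none. The gene piwi encodes the nuclear Argonaute that directs silencing of transposon transcription (2L, 10982205 to 10987420, minus strand). The region at its promoter, 10987410 to 10987805, had its summit at -188 bp from the TSS and a signal of 85.9, rank 3997 of 105892. That signal is higher than the best promoter signal of 82.7% of coding genes. Its IDR was 0.0171 in the ranking behind the main list, which misses the threshold of 0.01, and 0.00257 in the ranking behind the conservative list, which passes it. In the replicates' own rankings the region had a signal of 52.2 with an IDR of 0.0195 in replicate 1, and of 42.0 with an IDR of 0.0250 in replicate 2. The region was thus ranked in both replicates and passed in neither alone. The summit lies between divergent genes, at -198 bp from the TSS of CG12253 on the other strand, and the start sites of the pair are 386 bp apart, so the region cannot be assigned to piwi alone.

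The main list did hold peaks inside piwi, in an intron. A peak at 10986211 to 10986606 had its summit 1011 bp downstream of the TSS and a signal of 77.6, rank 4296 of 5846. Its summit sequence, given above as the piwi intron peak, holds none of the 11 words, and 23.8% of its bases are G or C. A second peak, at 10986412 to 10986807, overlaps the first, so the 2 calls are not separate stretches. It had its summit at 810 bp and a signal of only 15.2, and it overlaps a fragment of the transposon INE-1. The stronger of the pair was also in the list of replicate 1, with a signal of 49.6, and not in that of replicate 2. Neither was in the conservative list, which holds the promoter region of piwi in their place.

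The gene aub encodes Aubergine, a cytoplasmic Argonaute of nuage and germ plasm (2L, 10997819 to 11001476, minus strand). Its promoter region, in its 5′ untranslated region 301 bp downstream of the second of its 2 start sites, had a signal of 7.002 and an IDR of 0.803. Only 25.7% of coding genes had a lower best promoter signal, and nearly all of those had no ranked region at all, since 24.5% of coding genes have none. In replicate 2 the ranked promoter region lay at +400 bp from the same start, in an intron of aub, with a signal of 3.46. In replicate 1 no region was ranked at the promoter. The nearest main-list summit lay 2664 bp upstream of its first TSS. AGO3, the Argonaute that partners Aubergine in ping-pong amplification of piRNAs (3L, 23554593 to 23689640, plus strand), had no ranked region at its promoter in any list. There was also no ranked region anywhere in the 135048 bp of the gene, against 0.767 ranked regions per kb over the 7 arms together, and the nearest main-list summit was 459186 bp away. The authors' handling of reads that match several places is not stated, and how far the sequence of AGO3 is repeated was not examined. The lack of regions therefore cannot be read as a lack of binding at AGO3.

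Among the nuage and germ plasm genes, nos had a promoter peak, shared with CG11779, and vas did not. The gene vas encodes Vasa, the DEAD-box helicase of nuage and germ plasm that is used as a marker of germ cells (2L, 15061656 to 15074311, plus strand). Its promoter region, 15061411 to 15061806, had its summit 47 bp upstream of the TSS, which is also the TSS of solo, a gene of meiotic chromosome cohesion that shares the start of vas. The signal was 56.1, above that of 71.2% of coding genes, and the IDR was 0.0358 in the ranking of the main list and 0.0271 in that of the conservative list. The replicates gave signals of 28.7 with an IDR of 0.128 in replicate 1 and of 28.3 with an IDR of 0.168 in replicate 2. No list called it. A main-list peak with a signal of 82.9 lies inside the span of vas, 6363 bp downstream of its TSS, at 15067821 to 15068216. That peak is 59 bp downstream of the TSS of vig, a gene nested in an intron of vas and solo, and it was in the conservative list and in neither replicate's own list.

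The gene nos encodes Nanos, the translational repressor of the germ plasm that patterns the posterior of the embryo and maintains germ cells (3R, 19157238 to 19160202, plus strand). Its peak, 19156678 to 19157073, had a signal of 114, rank 2481 of 5846, and an IDR of 0.000677. In the conservative ranking its IDR was 0.000995. In replicate 1 it had a signal of 61.1 and passed with an IDR of 0.00149, and in replicate 2 its signal was 53.2 and its IDR of 0.0425 missed the threshold. The nos peak is therefore called from both replicates together and from replicate 1 but not from replicate 2. Its summit was 362 bp upstream of the nos TSS, farther than in all but 9.21% of the coding genes with a promoter peak. The summit lies in the 5′ untranslated region of CG11779, a gene on the minus strand. It lies between start sites of that gene, at -64 bp and +141 bp from them. The start sites of CG11779 are 221 to 2640 bp from the nos TSS. The nearer gene is thus CG11779, and the peak cannot be assigned to nos alone. A weaker ranked region nearer to nos, with its summit at -154 bp inside the nos upstream stretch given above, had a signal of 40.5 and an IDR of 0.634. That summit lies in an intron of CG11779, so this gene also extends over part of the stretch. The TATCGATA of that stretch, at -58 bp, lies outside the summit window of the peak.

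Of the genes for transcription of piRNA clusters, whose products form the Rhino-Deadlock-Cutoff complex, cuff alone had a promoter peak. The gene rhi encodes Rhino, the heterochromatin protein that marks clusters (2R, 17628491 to 17633516, minus strand). Its promoter region, 141 bp upstream of the TSS in an intron of CG10936, had a signal of 8.80 and an IDR of 0.803. In replicate 2 the region at -144 bp had a signal of 2.89, and another at +70 bp, in a coding exon of rhi, had 3.27. No region was ranked at the promoter in replicate 1 or in the conservative ranking. Replicate 1's own list held peaks farther upstream, at -1666 and -1880 bp, with signals of 47.4 and 4.27, and the nearest main-list summit was 32116 bp away.

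Deadlock, the linker of the complex, is encoded by del (2L, 21145137 to 21148546, minus strand). The strongest of its 3 ranked promoter regions, 253 bp downstream of a TSS, had a signal of 35.5 and an IDR of 0.289. The signals were 16.8 in replicate 1 and 19.8 in replicate 2, with IDRs of 0.353 and 0.655. A main-list peak lies just outside the promoter window, with its summit at -765 bp (21149113 to 21149508, signal 105, rank 2789 of 5846). The window of 500 bp thus leaves out the del peak at 765 bp and takes in the nos peak at 362 bp. That summit lies inside a fragment of the transposon HB, and its 101 bases, given above as the del upstream peak, hold TATAAAA and CATATG. Whether reads from these bases can be placed uniquely in the genome was not tested, and the authors' handling of reads that match several places is not stated, which limits what the signal and rank of this peak mean. The del upstream peak was also in the conservative list and in the list of replicate 1, with a signal of 59.6, and not in that of replicate 2.

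Cutoff, which protects cluster transcripts from processing and termination, is encoded by cuff (2R, 11886067 to 11887603, plus strand). Its peak, 11885571 to 11885966, had a signal of 183, rank 1229 of 5846, and an IDR of 4.19e-05. It passed in both replicates, with a signal of 115 and an IDR of 3.07e-05 in replicate 1 and a signal of 72.3 and an IDR of 0.000789 in replicate 2. Signal was higher than in 69.5% of the coding genes with a promoter peak. The summit was at -298 bp from the cuff TSS and at -184 bp from that of the divergent gene CG13185, whose TSS is 482 bp from that of cuff. The nearer gene is thus CG13185, and the peak cannot be assigned to cuff alone.

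The differentiation genes bgcn and bam, whose products act together to move germline stem cell daughters into differentiation, differed in their promoter calls. The gene bgcn (benign gonial cell neoplasm), which encodes a protein related to DExH-box helicases, lies at 2R, 23853270 to 23858921, on the minus strand. Its peak, 23858573 to 23858968, had the highest promoter signal of the 10 genes in the main list, 190, rank 1151 of 5846, with an IDR of 4.10e-05. It was also the highest of the 10 in the list of replicate 2, whereas in that of replicate 1 the cuff peak was higher. It passed in replicate 1 with a signal of 103 and an IDR of 7.17e-05, and in replicate 2 with a signal of 83.9 and an IDR of 0.000630. The summit was at +150 bp from the TSS, in the 5′ untranslated region of bgcn itself, and no other coding gene starts within 500 bp. Of the 3 main-list promoter peaks at the 10 genes it is the one not shared with a neighbour and the one downstream of the start. A second main-list peak inside bgcn, at 23856808 to 23857203 with a signal of 89.4, lies 1915 bp downstream of the bgcn TSS and 70 bp upstream of the TSS of Pym.

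The gene bam (bag of marbles) lies at 3R, 25243039 to 25245109, on the minus strand. Its strongest promoter region had its summit at -20 bp from the TSS, and the TATCGATA and ACGT words of the bam stretch given above start at -34 and -27 bp, inside its summit window. The signal was 34.4, above that of 51.1% of coding genes, and the IDR was 0.343. A second region at -222 bp had a signal of 18.9. In replicate 1 the signal was 22.6 with an IDR of 0.644, and no region was ranked at the promoter in replicate 2. The nearest main-list summit, with a signal of 366, was 2391 bp upstream.

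**Figure D3:**
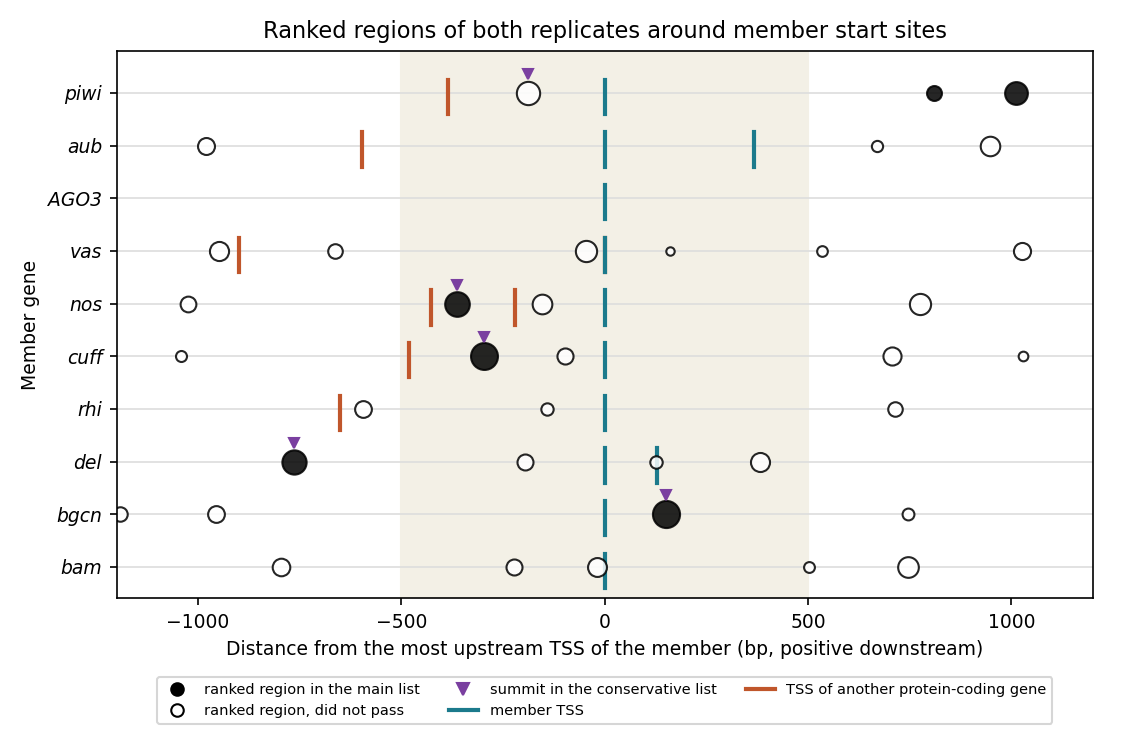
Summits of the ranked regions of both replicates around the most upstream TSS of each of the 10 genes (bp, positive downstream), with circle area rising with signal, filled circles for regions in the main list, triangles for summits in the conservative list, and the promoter window of 500 bp shaded. The nos and cuff peaks lie upstream beside the start of another coding gene, the bgcn peak lies downstream of its own start, the del peak at -765 bp lies outside the window, and no region is drawn for AGO3.

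**Figure D4:**
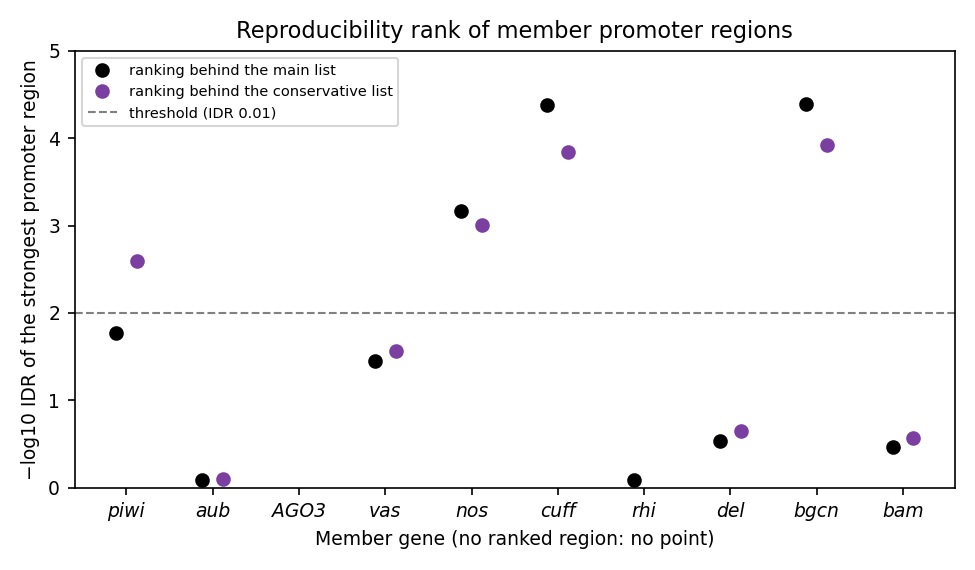
Reproducibility, as −log10 of the IDR, of the strongest promoter region of each gene in the ranking behind the main list and in that behind the conservative list, with the threshold (IDR 0.01) as a dashed line. Only piwi lies on different sides of the line, at 1.77 in the ranking of the main list and 2.59 in that of the conservative list; AGO3 has no point and rhi none for the conservative ranking.

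The 3 promoter peaks fall within the usual range of promoter peaks in strength. Their signals of 114, 183 and 190 compare with a median of 124 and quartiles of 86.8 and 211 over the 3019 coding genes with one. Peaks shared with the start of another coding gene make up 2 of the 3, against 49.5% of the 3019 genes, and the described gene is the nearest one in 1 of the 3, against 74.3%. Summits lay upstream in 2 of the 3, against 77.6%, and the median position over all was -118 bp. The call was made in both replicates' own lists for 2 of the 3 and in 1 list for the remaining gene, against 52.3% in both, 30.4% in 1 and 17.3% in neither over the 3019 genes. The base composition of the summit windows varied, with 55.4% G or C at nos, 31.7% at cuff, 47.5% at bgcn and 18.8% at the piwi promoter region, against a mean of 37.4% ± 11.0 (SD) over the 5846 main-list summits.

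In all, 7 wider lists, 6 of the germline and piRNA pathways and 1 of somatic small RNA genes for comparison, with 84 genes and none of the 10 above, gave 23 genes with a promoter peak in the main list (27.4%), against 21.6% of all coding genes. Their median strongest promoter signal was 44.2, against 33.4. Of the 23 genes, 9 had a promoter peak in both replicates' own lists, 9 in 1 and 5 in neither, and 10 shared the peak with another gene. The signal of 16 of the 23 was below the median of 124 for coding genes with a peak.

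In the list for piRNA cluster transcription and precursor export, 1 of 9 genes had a promoter peak. For this and the other main-list counts below, the share of all coding genes is 21.6%. This was Trf2, a TBP-related factor that works with the cluster factor Moonshiner, with a signal of 102. Of the 14 genes for piRNA biogenesis, 2 had one. The peak of papi, a Tudor-domain protein that takes part in trimming of piRNA ends on mitochondria, had a signal of 918 and was the strongest of the 23, rank 58 of 5846, and it was in both replicates' own lists. The peak of Nbr, the exonuclease Nibbler, had a signal of 67.4, lay with its summit at -486 bp, was shared with Noc2 and was in neither. The nuage and ping-pong list had 4 of 11, namely tapas (102), the DEAD-box helicase gene bel (81.0), the helicase gene spn-E (78.8, shared with ND-23) and tud, which encodes Tudor (70.1, shared with 2 transfer RNA genes). In the list of replicate 1, 2 of the 11 had a promoter peak, against 16.7% of all coding genes. In that of replicate 2, 1 of the 11 had one, against 14.2%.

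Genes for nuclear piRNA silencing had promoter peaks at 4 of 8, against 21.6% of all coding genes, with signals below the median of bound genes. These were ctp, the dynein light chain gene (90.7), the gene of heterochromatin protein HP1a (90.4, shared with Ssb-c31a), wde, a cofactor of the histone methyltransferase Eggless (87.0), and Panx, which encodes Panoramix (77.2, shared with CG9485). The share of 4 of 8 was the largest among the 7 lists, of which none was tested. The count of this list was 2 of 8 in the conservative list, 1 of 8 in the list of replicate 1 and 2 of 8 in that of replicate 2. The shares of all coding genes in those lists were 19.3%, 16.7% and 14.2%. The germ plasm and primordial germ cell list had 7 of 18 in the main list, 7 in the conservative list and 6 in the list of each replicate, beside those same shares. Its strongest were orb, a cytoplasmic polyadenylation factor (298, shared with Cdc16), wun, a lipid phosphatase that guides germ cell migration (215), capu, the actin nucleator Cappuccino (166), and gcl, germ cell-less (111, shared with CG14767), and all 4 were in both replicates' own lists.

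Germ cell differentiation and meiosis genes had 3 of 16 with a promoter peak, against 21.6% of all coding genes. Over all 16 genes the median strongest promoter signal, with genes that have no region at 0, was 22.3, against 33.4 over all coding genes. They were Sxl, the splicing regulator of sex determination that germ cells also need (238, in both replicates' own lists), the RNA-binding protein gene Rbfox1 (91.1) and stet, a rhomboid protease gene of germ cell and soma signalling (68.9, in neither replicate's list). The somatic small RNA genes, which make small interfering RNAs and microRNAs, had 2 of 8, against the same 21.6%. These were r2d2 (341) and AGO1 (133, shared with CG33155 and mRpL53). In the conservative list 3 of the 8 had a promoter peak, against 19.3% of all coding genes. The r2d2 peak lies also at the TSS of Herp, whose vertebrate homologue acts in degradation of endoplasmic reticulum proteins, and it was in both replicates' own lists.

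**Figure D5:**
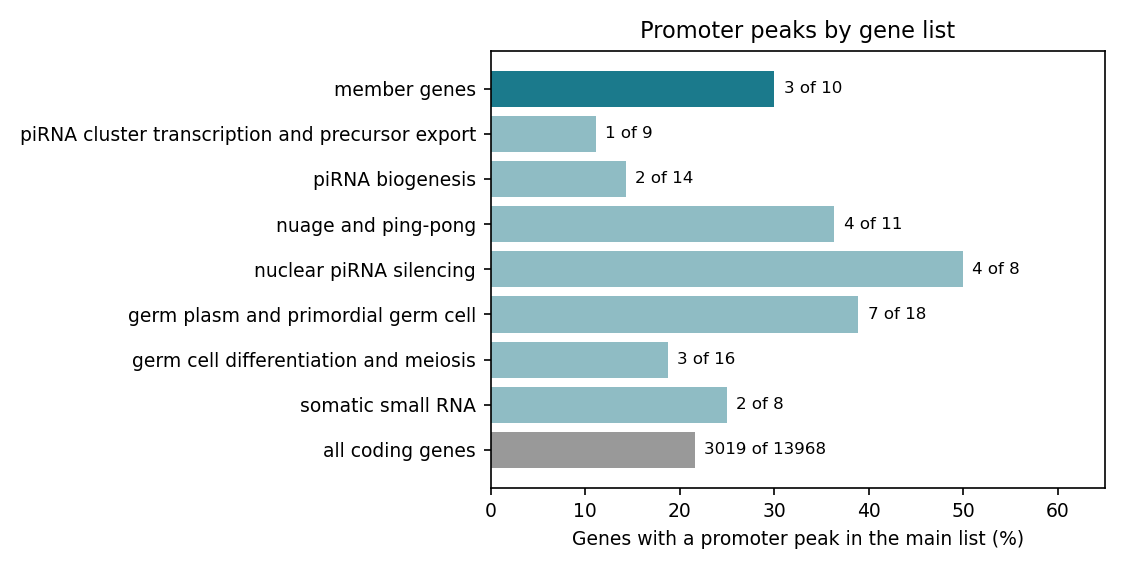
Share of genes with a main-list promoter peak (percent) for the 10 described genes, for the 7 wider lists and for all coding genes, with the count beside each bar. The shares run between 1 of 9 for cluster transcription and export and 4 of 8 for nuclear silencing, against 3019 of 13968 for all coding genes; no list was tested.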

How the data were processed

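Peak lists on the dm6 build were used, for each replicate and for both together, and the main list is the thresholded list of both that is not named conservative. Text files deposited with them name dm6 alignments and a control file as the source. The control library was not analysed here. The aligner and caller were not given in the sources used here. The values used are scores set by the authors (signal and IDR score) and the deposited −log10 of each region's IDR. How the rankings behind the main and conservative lists differ is not labelled. Regions that met the threshold but were absent from the main list numbered 165 of 6011, and none lay within 5000 bp of the 10 genes. The depth is unknown, so no interval was computed.

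Start sites came from Ensembl release 115, annotation BDGP6 version 54, for protein-coding genes on 7 arms, and sequences from the RefSeq copy of the assembly. The gene nos is listed there as nanos and was matched through its RefSeq synonym, since Nos is nitric oxide synthase. Boot and Nbr were matched to boot and nbr of the lists. All 84 list names matched. Coordinates are 1-based. A summit within 500 bp of any TSS of a gene counted as its promoter peak. Named were all 10 genes, every coding gene with a TSS within 500 bp of their summits, and up to 4 bound genes of highest signal per wider list; other genes (Pym, vig, CG10936) were named after their values were seen. The 10 genes, the lists and the words were chosen with earlier results of these data known, so nothing was tested. The calculation was checked on simulated peaks with known positions. The 9 alternatives tried are in the closing section. Python 3.11.15, numpy 2.4.6, pandas 2.3.3 and matplotlib 3.10.9 were used.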

Additional observations from a re-analysis of the deposited data

How the results depend on the processing

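Of the 10 genes, nos, cuff and bgcn had a promoter peak under an IDR of 0.001 or lower, among the 2923 peaks of highest signal, with any base of the peak within 500 bp, and with the most upstream TSS alone. The shares of all coding genes under these settings were 13.4%, 13.6%, 23.3% and 19.1%. A window of 250 bp left 1, bgcn, against 17.7% of all coding genes. A window of 1000 bp gave 5, against 25.4%, adding piwi through the weaker of its intron peaks (signal 15.2, at 810 bp) and del through its upstream peak. Leaving out 1 replicate means using the other replicate's own list, so its values repeat those given above. Leaving out 1 replicate gave 2 to 3, against 14.2% of all coding genes without replicate 1 and 16.7% without replicate 2. Without replicate 1 the nos peak was lost. The conservative list, also given above, gave 4, against 19.3%. Over all coding genes, the stricter settings hold fewer peaks by construction and gave 1875 genes (IDR of 0.001) and 1895 (highest signal), against 3019; leaving out 1 replicate gave 1981 to 2337. In the wider lists the count was 23 genes in the main list, 9 under an IDR of 0.001 and 10 among the peaks of highest signal. It was 15 with the most upstream TSS alone and 15 with a window of 250 bp. Without 1 replicate it was 14 to 15, and without replicate 2 not all of the genes are among the 23. Under an IDR of 0.001 the lists of nuclear piRNA silencing, of nuage and of cluster transcription fell from 4, 4 and 1 to 0. The germ plasm list then had 5, the somatic small RNA list 2, and the lists of piRNA biogenesis and of germ cell differentiation 1 each. No paired analysis was possible because there was 1 group. With an unknown depth, a gene without a region cannot be called unbound.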

Other observations

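The conservative list was not a subset of the main list. Of its 4884 peaks, 541 (11.1%) were not in the main list, with signals of 2.09 to 176 and a median of 66.8, and piwi was 1 of the 175 coding genes with a promoter peak in the conservative list alone. In the other direction, 495 coding genes had a promoter peak in the main list alone. The reason for the difference between the rankings was not tested.

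Atf6-eGFP summits inside annotated transposons, the targets of the pathway, were counted. They made up 15 of 5846 main-list summits (0.257%), against 488 of the 100046 ranked regions that are not in it (0.488%). Of the 15, 8 lay in INE-1 and 3 in 1360, and the HB fragment upstream of del was the single main-list summit in that family. How the authors treated reads that match repeated sequence is not stated, so these counts cannot be read as little binding at transposons. The flamenco precursor gene flam (X, 21631891 to 21790731), a major piRNA source of the ovarian follicle cells, held 1 ranked region with a signal of 11.9 and no main-list peak. That is 0.00630 ranked regions per kb, against 0.767 over the 7 arms. The same limit holds for flam.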
